A study of Mus musculus with 4 samples.

Results

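The IkB proteins are the inhibitors and cofactors of the transcription factor NF-kB, and the mRNAs of 6 of their genes were followed in 4 libraries of mouse macrophage RNA. The genes were Nfkbia (IkB-alpha), Nfkbib (IkB-beta), Nfkbie (IkB-epsilon), Nfkbiz (IkB-zeta), Nfkbid (IkBNS) and Bcl3. They were chosen by gene symbol, and all 6 were found among 55536 annotated genes. The cells were primary macrophages of the C57BL/6J strain, derived in culture from bone marrow, and the libraries held total RNA of their cytosolic fraction after depletion of ribosomal RNA. All 4 libraries belong to 1 group, labelled biological replicates 1 to 4. These cells had first been exposed to lipid A, the part of lipopolysaccharide that activates Toll-like receptor 4, at 100 ng/ml for 12 h. After a washout of 12 h, the cells received 100 ng/ml once more for 15 min. No untreated group was analysed here, so the effect of lipid A on these genes cannot be given. Neither sex nor age was recorded, and a single donor record covers the 4 samples. The p-values therefore measure only the spread between these libraries, part of which may be technical. In the limma tests the spread of a gene was moderated over all genes tested, so it is not that gene's alone. In bulk RNA, fewer cells of a type and less RNA per cell cannot be told apart.

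NF-kB dimers rest in the cytoplasm bound to the classical IkB proteins IkB-alpha, IkB-beta and IkB-epsilon. When Toll-like receptor 4 is engaged, the IkB kinase phosphorylates these inhibitors at paired serines, a ubiquitin ligase of the SCF type marks them, and the proteasome destroys them. The freed dimers enter the nucleus and switch on inflammatory genes, among them Nfkbia itself, which rebuilds the inhibitor. IkB-zeta, IkBNS and Bcl3 instead act in the nucleus on p50 or p52 dimers already at DNA, where they raise some genes and restrain others; in macrophages IkB-zeta is known for the late induction of genes such as Il6 and Lcn2, and IkBNS and Bcl3 for restraint of cytokine genes.

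The kinase target is visible in the coding bases of the transcripts. It reads aspartate, serine, glycine, any residue, any residue, serine. It was searched in the 15 coding transcripts of the 6 genes (GENCODE M21), and 6 transcripts held it, all of them from the classical genes. None of the 9 coding transcripts of Nfkbiz, Nfkbid and Bcl3 did. Transcripts of the same gene repeated the same stretch. Other genes were not searched, so no share over all coding transcripts can be set beside these counts. The stretches are shown because, among the members, only the classical genes held them. The capitals mark the serine codons, which are codons 32 and 36 in Nfkbia, 19 and 23 in Nfkbib, and 18 and 22 in Nfkbie.
Nfkbia-201: gacAGCggcctggacTCC
Nfkbib-202: gacAGCggcctgggcTCT
Nfkbie-201: gacTCTggcatagagTCG

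The upstream windows of Nfkbia and Nfkbie are shown because these genes shared their low and high libraries in the deposited levels, as described below. With the protein-coding total equalised, Nfkbie was highest in replicate 1 instead. Those of Nfkbid are shown because its transcripts start at different sites. A link between motif matches and the pattern over libraries was not tested. By the distance over libraries defined below, Nfkbia was nearer to Nfkbib (0.14) than to Nfkbie (0.247). Each window runs from 250 bases before to 50 after a start site (RefSeq, GRCm38.p6), read along the strand of the gene. The table held windows for 5 of the 6 genes, 7 windows in all. Capitals mark matches to GGNNNTTCC, a form of the NF-kB motif, on either strand, and a match on both strands at 1 position counts once. The Nfkbia window, chr12:55492598-55492897 on the minus strand, held 3 matches, beginning 211, 178 and 29 bases before the start site. The Nfkbie window, chr17:45555450-45555749 on the plus strand, held 2.
Nfkbia: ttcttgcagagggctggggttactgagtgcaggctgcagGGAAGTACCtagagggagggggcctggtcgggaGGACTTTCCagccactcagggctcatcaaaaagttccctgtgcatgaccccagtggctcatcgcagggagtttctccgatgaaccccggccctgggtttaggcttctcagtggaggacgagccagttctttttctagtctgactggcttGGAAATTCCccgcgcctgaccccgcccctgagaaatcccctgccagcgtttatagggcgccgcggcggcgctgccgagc
Nfkbie: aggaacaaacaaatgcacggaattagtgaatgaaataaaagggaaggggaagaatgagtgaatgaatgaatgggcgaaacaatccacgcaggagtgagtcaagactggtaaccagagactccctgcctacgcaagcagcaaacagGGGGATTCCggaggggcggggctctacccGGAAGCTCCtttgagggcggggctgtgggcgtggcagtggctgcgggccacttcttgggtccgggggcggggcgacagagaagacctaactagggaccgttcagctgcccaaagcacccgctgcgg
For Nfkbid, the window at the first start site (transcript Nfkbid-203), chr7:30421481-30421780 on the plus strand, held no match. The window at the next start site, 674 bases downstream (Nfkbid-202), chr7:30422156-30422455, held 3.
Nfkbid at Nfkbid-203: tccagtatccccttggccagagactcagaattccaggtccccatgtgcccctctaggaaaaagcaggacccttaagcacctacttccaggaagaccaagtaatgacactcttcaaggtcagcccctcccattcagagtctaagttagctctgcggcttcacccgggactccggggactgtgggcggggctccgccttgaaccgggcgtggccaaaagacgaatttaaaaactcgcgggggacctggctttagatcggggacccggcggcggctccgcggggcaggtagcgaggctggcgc
Nfkbid at Nfkbid-202: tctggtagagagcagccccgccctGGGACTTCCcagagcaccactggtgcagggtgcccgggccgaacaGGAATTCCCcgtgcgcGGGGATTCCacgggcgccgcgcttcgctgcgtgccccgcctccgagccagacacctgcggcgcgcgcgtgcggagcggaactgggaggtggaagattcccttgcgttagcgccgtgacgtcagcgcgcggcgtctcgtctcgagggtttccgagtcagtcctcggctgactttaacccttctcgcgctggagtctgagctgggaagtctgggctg
The third Nfkbid window held 1 match, the Bcl3 window 2 and the Nfkbib window none. Of 32851 promoter windows of the same length, 18.48% held at least 1 match, 2.12% at least 2 and 0.17% at least 3. A match is a description of the letters and not evidence of binding.

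All 6 IkB mRNAs were present above 1 TPM (a level relative to all RNA of the library and corrected for length). Levels are TPM as deposited unless said otherwise. Nfkbia was the highest of the family in every library and Nfkbid the lowest. The level test asked, gene by gene, whether log2(TPM + 0.1) lay above 1 TPM beyond the spread of the 4 libraries, moderated over genes (limma, one-sided, Benjamini-Hochberg adjusted p below 0.05). The 6 of 6 members called above compare with 58.2% of the 16262 genes tested and 71.2% of the 12636 protein-coding genes tested, while 35.1% of all genes tested were called below. Genes entered the test with at least 10 expected counts summed over the libraries, which all 6 members passed. The size of a p-value depended on this filter: without it the limma adjusted p of Nfkbie was 6.12e-81 in place of 1.94e-07.

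Nfkbia encodes the inhibitor that is destroyed and remade fastest in an NF-kB response. It lies at chr12:55489410-55492647 on the minus strand (mm10). Its level was 87.0, 62.6, 58.5 and 117 TPM in replicates 1 to 4, a mean of 81.4 ± 27.1 (SD, n = 4). Replicate 4 was the highest and replicate 3 the lowest, and no other member reached its lowest value in any library. It exceeded 1 TPM with an adjusted p of 3.49e-10 in limma, and 96.0% of the genes tested had a lower mean. Nfkbia was backed by 5991 to 9363 expected counts per library, and the exact Poisson 95% interval of those counts extended at most 2.54% from the value, so counting error was small beside the spread between libraries. The median TPM was 2.72 over all genes tested and 4.85 over protein-coding ones.

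Nfkbib encodes a classical inhibitor that is known to hold NF-kB more persistently. It lies at chr7:28758251-28767512 on the minus strand. Its level was 19.6, 15.9, 17.3 and 29.7 TPM, highest in replicate 4, with a mean of 20.6 ± 6.20 (SD, n = 4; limma adjusted p = 1.83e-09). Its gene overlaps Sirt2 on the opposite strand by 778 bases, and Sirt2 stood at 30.6 to 47.0 TPM. It also overlaps Ccer2, listed at 0. Nothing in the labels or headers says whether the counting used strand, so reads in the overlap with Sirt2 could not be separated. That overlap, chr7:28766735-28767512, lies at the 5′ side of Nfkbib, within Nfkbib-203 alone of the 3 annotated transcripts, and Nfkbib-203 was listed at 0 in every library. The overlap with Ccer2 lies at the 3′ end of Nfkbib-201, which held at most 1.42% of the Nfkbib level.

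Nfkbie, at chr17:45555703-45563169 on the plus strand, encodes the third classical inhibitor, which is itself induced by NF-kB. Its level was 13.0, 8.12, 5.40 and 14.2 TPM, a mean of 10.2 ± 4.13 (SD, n = 4; limma adjusted p = 1.94e-07). The lowest library, replicate 3, also had the lowest Nfkbia level.

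Among the nuclear members, Bcl3, a partner of p50 and p52 dimers first known from a lymphoid oncogene, was the highest on average. It lies at chr7:19808462-19822770 on the minus strand. Its level was 15.4, 10.9, 19.7 and 20.0 TPM, a mean of 16.5 ± 4.32 (SD, n = 4; limma adjusted p = 3.69e-09), with replicate 2 the lowest. Bcl3 was thus high in replicate 3, where Nfkbia and Nfkbie were low. It overlaps the antisense genes Gm16175, listed at 0, and Gm16174, at 0.14 to 0.62 TPM, and reads shared with them could not be separated without strand.

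Nfkbiz, at chr16:55811375-55838899 on the minus strand, encodes IkB-zeta, the cofactor for late inflammatory genes. Its level was 13.7, 7.86, 10.2 and 12.9 TPM, a mean of 11.2 ± 2.68 (SD, n = 4; limma adjusted p = 7.72e-09). Its expected counts, 1894 to 2721 per library, were higher than those of Nfkbib or Nfkbie although its TPM was similar to that of Nfkbie, since its main transcript is longer. Nfkbid, at chr7:30421732-30428746 on the plus strand, encodes IkBNS. Its level was 1.99, 1.34, 1.58 and 1.44 TPM, a mean of 1.59 ± 0.286 (SD, n = 4; limma adjusted p = 0.00347), and 43.1% of the genes tested had a lower mean. Nfkbid rested on 152 to 224 expected counts per library, whose exact Poisson 95% intervals extended 13.3% to 16.2% from the value. Nfkbid was the only member whose call changed with the quantification: it averaged 0.669 ± 0.182 TPM in the second quantification (SD, n = 4) and was called below 1 TPM there (limma adjusted p = 0.030), against 1.59 TPM in the first. The second quantification was lower for most genes, and with both rescaled to protein-coding genes Nfkbid averaged 5.94 ± 1.12 TPM in the second and 5.19 ± 0.963 TPM in the first (SD, n = 4 each).

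**Figure D1:**
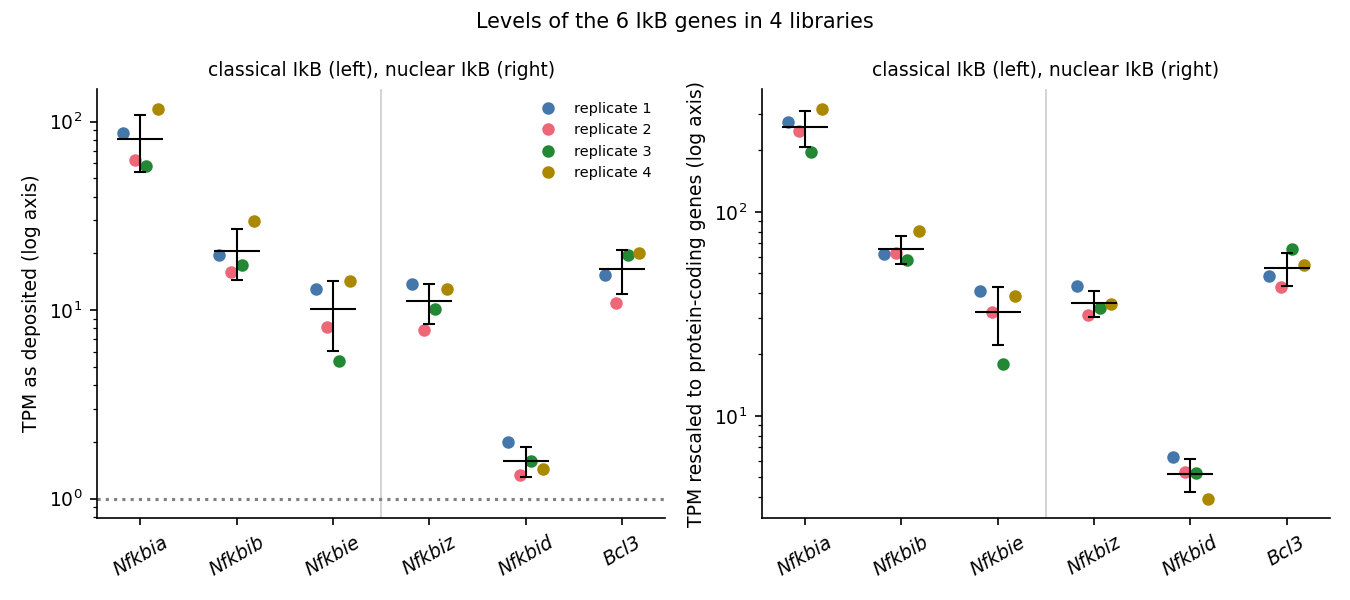
TPM of the 6 IkB genes on log axes, as deposited (left) and rescaled so that protein-coding genes have the same total in each library (right). Points are the 4 libraries, the horizontal bar is the mean and the error bar the SD. Nfkbia stands above all other members, at 58.5 TPM or more, and Nfkbid below them, at 1.99 TPM or less.

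Protein-coding genes held 31.7%, 25.3%, 29.96% and 36.6% of the TPM in replicates 1 to 4. When protein-coding genes were given the same total in every library, Nfkbia stood at 274, 247, 195 and 321 TPM (259 ± 52.4; SD, n = 4). This rescaling raised the log2 level of the median gene by 1.67. Nfkbib stood then at 61.9, 62.9, 57.9 and 80.9 TPM, and Bcl3 at 48.4, 42.9, 65.8 and 54.6 TPM. Nfkbie stood at 40.9, 32.1, 18.02 and 38.8 TPM, Nfkbiz at 43.3, 31.1, 33.9 and 35.2 TPM, and Nfkbid at 6.27, 5.30, 5.27 and 3.93 TPM. Replicate 4, which held the highest deposited Nfkbia, Nfkbib, Nfkbie and Bcl3 levels, kept the highest value only for Nfkbia and Nfkbib on this scale.

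The members kept a common order for most pairs. Of the 15 pairs, 13 stood in the same order in all 4 libraries. Nfkbia exceeded Nfkbib, its nearest neighbour, by 1.96 ± 0.16 on the log2 scale (SD of the difference, n = 4). Each of these 13 pairs had an exact two-sided sign-flip p of 0.125, the smallest that 4 libraries allow, and an adjusted p of 0.144 over the 15 pairs, so this test cannot reach 0.05 for any pair. The neighbours Nfkbib and Bcl3 differed by 0.32 ± 0.35 on the log2 scale, with Nfkbib higher in 3 of 4 libraries (exact p = 0.25, adjusted p = 0.268). Nfkbie and Nfkbiz differed by -0.20 ± 0.48, Nfkbie minus Nfkbiz, with each higher in 2 libraries (exact p = 0.75).

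Summed over genes, the classical inhibitors held 120, 86.7, 81.3 and 161 TPM in replicates 1 to 4, and the nuclear proteins 31.1, 20.1, 31.5 and 34.3 TPM. The ratio of the sums was 3.85, 4.32, 2.58 and 4.70, a mean of 3.86 ± 0.922 (SD, n = 4), so classical mRNA exceeded nuclear mRNA in every library. Nfkbia alone made up 57.7%, 58.7%, 51.9% and 60.0% of the family's TPM. Replicate 3 had the lowest ratio and the lowest Nfkbia share. In the same library Bcl3 made up 17.5% of the family's TPM, against 10.2% in each of the other 3. The classical sum was 1.37, 1.20, 1.02 and 1.46 times the summed TPM of the 5 Rel and precursor subunits. That ratio compares mRNA levels and not amounts of inhibitor and bound protein.

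The classical members, and Nfkbie most of all, shared a low replicate 3 once the protein-coding total was equalised. The deviation from the gene's mean, on a log2 scale, was 0.40, 0.05, -0.78 and 0.32 for Nfkbie in replicates 1 to 4. It was 0.10, -0.04, -0.39 and 0.33 for Nfkbia and -0.08, -0.06, -0.18 and 0.31 for Nfkbib. All 3 were below their mean in replicate 3 and above it in replicate 4. The nuclear members gave other values: the deviation in replicate 3 was 0.33 for Bcl3, 0.04 for Nfkbid and -0.07 for Nfkbiz. Nfkbid was lowest in replicate 4 on this scale, at -0.37, where the classical genes were high; on the deposited scale its lowest library was replicate 2. This is a description of 4 libraries, and no test was made of it.

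**Figure D2:**
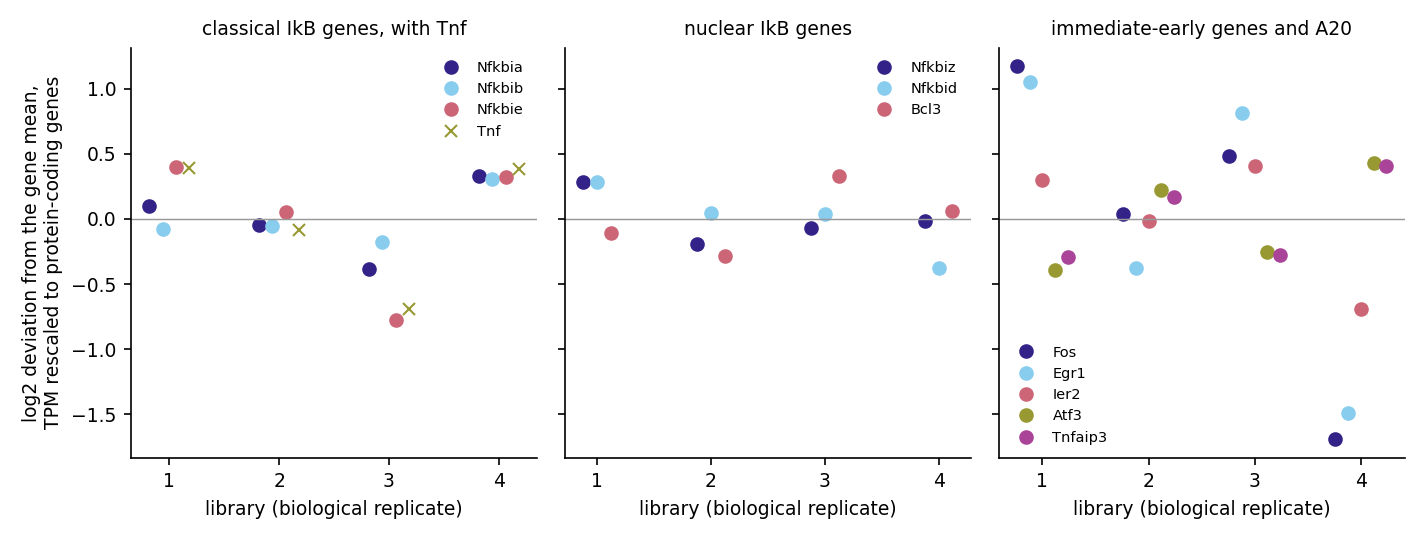
Log2 deviation of each gene from its own mean over the 4 libraries, on TPM rescaled to protein-coding genes; each point is 1 library. Nfkbie (-0.78) and Tnf (-0.69) lie lowest in replicate 3, while Fos (-1.69) and Egr1 (-1.49) lie lowest in replicate 4.

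The gene whose pattern over the 4 libraries was nearest to Nfkbie was Tnf, the cytokine gene, followed by Ccl3, a chemokine gene. Likeness was the root mean square difference of the centred log2(TPM + 0.1) values over the 4 libraries, among protein-coding genes of at least 10 TPM. It was 0.0863 for Tnf and 0.131 for Ccl3. Tnf stood at 105, 59.8, 46.4 and 120.1 TPM, so its library order was that of Nfkbie. Only 10 of 4212 genes lay within 0.2 of Nfkbie, whereas 370 lay within 0.2 of Nfkbia, 1351 of Nfkbib, 1739 of Nfkbiz, 826 of Bcl3 and, among 4213 genes, 988 of Nfkbid. The nearest to Nfkbia were Bcl2a1d, of the anti-apoptotic Bcl2 family (0.0412), and Sap18 (0.0425). With so many genes at a small distance, the nearest names for the other members carry little. They were Phc2 and Cited2 for Nfkbib, and Ywhag and Ugp2 for Nfkbiz. For Nfkbid they were Polr2j and Npm1, and for Bcl3 Emilin2 and Lfng, all at 0.0076 to 0.0576. Tnf was likewise picked as the nearest of 4212 genes, and its 0.0863 exceeded the nearest distance of every other member. Nfkbie also had the widest log2 range of the members, 1.38 as deposited. The part of that range in its few near genes was not tested. Among the members themselves, Nfkbia and Nfkbib were the most alike (0.14) and Nfkbie and Bcl3 the least (0.642). Library size, the protein-coding share of TPM and the libraries themselves are common to all genes in these measures.

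Rapid-response genes differed among themselves in which libraries were high. Fos, an immediate-early transcription factor gene, stood at 31.1, 11.3, 18.2 and 4.89 TPM, and its rescaled deviation was 1.17 in replicate 1 and -1.69 in replicate 4. Egr1, another of this class, deviated by 1.05 and -1.49 in the same libraries. Tnfaip3, which encodes the feedback inhibitor A20, deviated by -0.29, 0.17, -0.28 and 0.41, of which the value of replicate 2 was -0.11 on the deposited scale. Like Nfkbia, Tnfaip3 and the stress-response gene Ier3 were highest in replicate 4 as deposited. Ier3 stood at 23.2, 18.3, 17.7 and 26.9 TPM in replicates 1 to 4. Rescaled to protein-coding genes, Ier3 stood at 73.1, 72.3, 58.9 and 73.3 TPM, with replicate 4 close to replicates 1 and 2. The libraries also differed in RNA that is retained in the nucleus: Malat1 stood at 55.7, 719, 416 and 295 TPM and Neat1 at 9.62, 41.2, 31.7 and 21.1 TPM. Replicate 1 was the lowest in both and replicate 2 the highest; the part of this in the members' values was not tested.

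The spread between libraries was widest for Nfkbie. The biological coefficient of variation (edgeR, which removes counting noise) was 0.272 for Nfkbie, 0.232 for Nfkbid, 0.197 for Nfkbia, 0.167 for Bcl3, and 0.163 for both Nfkbib and Nfkbiz. Its median was 0.206 over all genes tested and 0.143 over 4381 genes of at least 10 TPM. Nfkbid was not among those better-expressed genes. Against them the other members were variable: 95.8% of them had a lower value than Nfkbie, 89.0% than Nfkbia, and 73.3% to 75.7% than Nfkbib, Nfkbiz and Bcl3. Over all genes tested the ranks were lower: 58.3% had a lower value than Nfkbie, 54.0% than Nfkbid and 48.2% than Nfkbia. For Nfkbib, Nfkbiz and Bcl3 it was 36.4% to 37.9%. Nfkbie lay above the 90th percentile of the 1981 genes between 8 and 16 TPM (0.197), and Nfkbid near the median of the 1283 genes between 1 and 2 TPM (0.236). The Nfkbie value rested on replicate 3: without it the coefficient was 0.164.

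**Figure D3:**
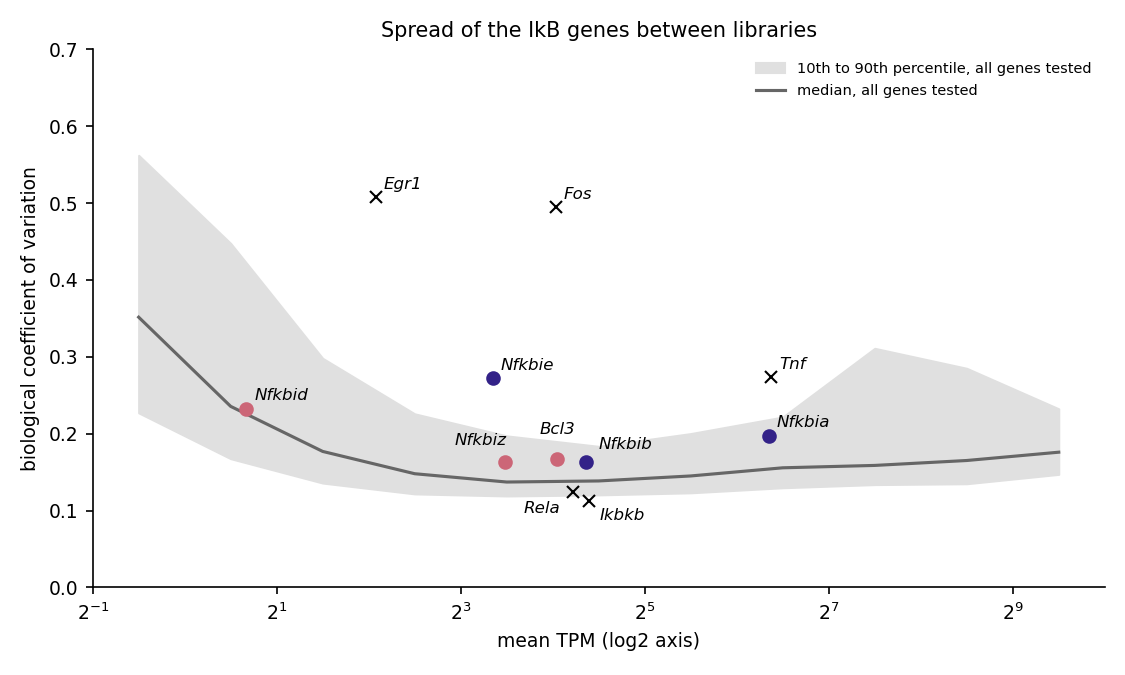
Biological coefficient of variation against mean TPM (log2 axis). The line is the median and the band the 10th to 90th percentile of all genes tested in bins of TPM; filled points are the IkB genes (blue classical, red nuclear) and crosses other genes. Nfkbie (0.272) lies above the band, and Rela (0.124) and Ikbkb (0.112) lie below the median line.

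Each member except Nfkbid was carried mainly by 1 transcript, and the annotation shows which protein form that transcript encodes. Nfkbid was divided among several, as described below. The median over the 6 genes of the leading transcript's share of the gene's TPM was 94.0%. Nfkbia-201 held 99.8% ± 0.0610 of Nfkbia (SD, n = 4), Nfkbib-202 held 98.9% ± 0.307 of Nfkbib and Nfkbie-201 held 94.5% ± 1.92 of Nfkbie. All 3 encode the kinase target shown above.

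For Nfkbiz the leading transcript was Nfkbiz-204, which starts 16761 bases downstream of the first annotated start of the gene and encodes the long form of IkB-zeta. It held 92.8%, 92.4%, 93.4% and 95.3% of the Nfkbiz level in replicates 1 to 4. Nfkbiz-203, which starts at the distal site and encodes the short form, held 5.32%, 6.49%, 5.11% and 3.88%. The long form has 728 codons and the short form 629, and the short form is the tail of the long one, so 99 codons belong to the long form alone. The first coding bases of each are shown because they are the point at which the forms part, with the start codon in capitals. It lies at position 55822053 of chromosome 16 for the long form and at 55819695 for the short one.
Nfkbiz-204, long form: ATGatcgtggacaagctgctggacgacagc
Nfkbiz-203, short form: ATGggggttggcaggcagcagagaggcccc
The second quantification gave Nfkbiz-204 a mean of 92.3% ± 1.81, against 93.5% ± 1.28 in the first (SD, n = 4 each). The other coding transcript of the long form, Nfkbiz-201, begins at the distal site and was listed at 0 in each library by both quantifications.

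Nfkbid was divided among 3 coding transcripts with different start sites. Nfkbid-203, from the first site, held 88.4%, 75.4%, 93.0% and 59.4% of the gene's TPM. Nfkbid-201, which starts 1543 bases downstream, held 11.6%, 24.6%, 6.96% and 26.6%. Nfkbid-202, whose upstream window holds 3 motif matches above, was listed at 0 in replicates 1 to 3 and held 14.0% in replicate 4. The second quantification divided the gene differently. It gave Nfkbid-202 28.6%, 30.03%, 32.6% and 13.1%, and Nfkbid-203 58.0%, 44.5%, 63.7% and 71.5%. The quantifications thus placed replicate 4 at opposite ends, and the whole gene had 152 to 224 expected counts per library, so the use of the start sites is uncertain here. The choice bears on the protein: Nfkbid-203 is annotated with 470 codons from a CTG start, and the other transcripts with 327 codons that form its tail.

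The full-length transcript of Bcl3, with 448 codons, held 84.1%, 88.7%, 81.5% and 95.5% of the gene's TPM. Most of the rest was a coding fragment of 755 bases at the 3′ end, with 15.9%, 7.64%, 16.8% and 4.10%. The second quantification gave that fragment a mean of 3.21% ± 1.97, against 11.1% ± 6.24 in the first (SD, n = 4 each).

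**Figure D4:**
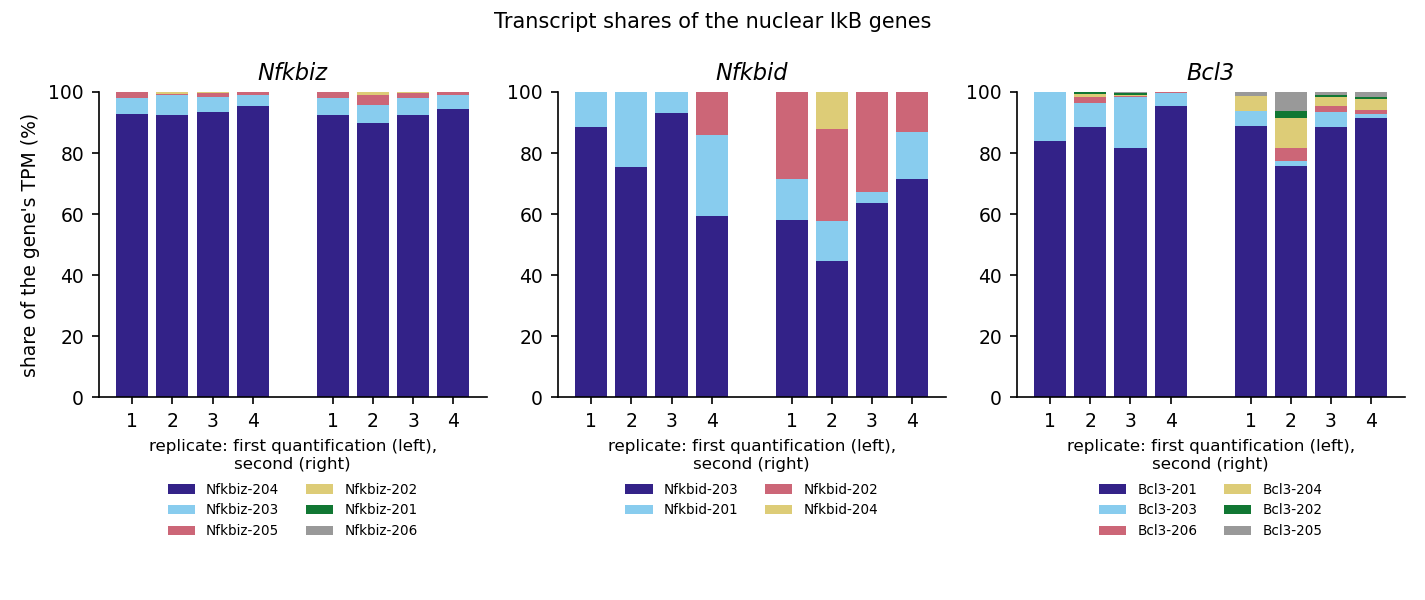
Share of each gene's TPM by annotated transcript in replicates 1 to 4, by the first quantification (left bars) and the second (right bars), for Nfkbiz, Nfkbid and Bcl3. Nfkbiz-204 holds 89.97% or more of Nfkbiz in every bar, while Nfkbid-203 ranges between 44.5% and 93.0%.

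Transcripts annotated as retaining an intron were a small part of the members, but in the second quantification replicate 2 had the highest share of them for each gene that has one. Nfkbia-202 held 0.8002%, 9.89%, 1.57% and 2.91% in replicates 1 to 4. Nfkbie-202 held 1.77%, 6.55%, 2.63% and 2.77%, and Nfkbid-204 was listed at 0 but for 12.1% in replicate 2. The pair of Bcl3 transcripts of this kind held 4.32% and 2.41% in replicate 2, against at most 1.83% and 0.652% in the other libraries. In the first quantification Nfkbie-202 was also highest in replicate 2, at 3.57%, as was 1 of the Bcl3 pair at 2.12%. The other of that pair was highest in replicate 3 at 0.659%, Nfkbia-202 was at most 0.291%, and Nfkbid-204 was listed at 0 in each library. Replicate 2 was also the library with the most Malat1 and Neat1, and the part of nuclear RNA in these shares was not tested.

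The quantifications otherwise gave the members the same standing. As deposited, the second was lower than the first for every member, by -1.52 (Nfkbib) to -1.15 (Nfkbid) on the log2 scale, and by -1.40 for the median gene. None of the 6 differed by more than 1 on the log2 scale at an adjusted p below 0.05 (limma treat, adjusted p 0.101 to 0.312), while 4 of 6 had an unadjusted p below that value; 4.28% of the 10329 genes compared were called lower in the second quantification. As deposited, the standard error in this comparison was 0.258 for every member, so these p-values hold no spread of the single gene. With both rescaled to protein-coding genes, the differences of the members were between -0.07 and 0.19, against 0.05 for the median gene. None was then called, at an adjusted or an unadjusted p below 0.05, while 4.27% of 14119 genes were.

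The pathway that acts on the classical inhibitors was present throughout. All 5 Rel and precursor subunits were above 1 TPM, with a median of 18.7 TPM. The highest were Nfkb1, the precursor of p50 (24.9 ± 4.47), and Nfkb2, the precursor of p52 (24.9 ± 5.78; SD, n = 4 each). All 8 genes of the IkB kinase and its activators were above, with a median of 7.60 TPM. Tab2, an adaptor of the upstream kinase TAK1, was the highest at 27.2 ± 4.62 TPM, and Ikbkb, the kinase subunit that phosphorylates the classical IkB proteins, followed at 21.01 ± 2.19. Ikbkb had the narrower spread, 18.1 to 23.4 TPM over the libraries.

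All 5 genes of the SCF ubiquitin ligase were above 1 TPM (median 20.6), led by the ring subunit Rbx1 at 50.1 ± 7.63 TPM and the adaptor Skp1a at 34.9 ± 8.09. Of the F-box proteins that recognise the phosphorylated serines, Fbxw11 averaged 20.6 ± 3.91 TPM and Btrc 3.38 ± 0.697 (SD, n = 4 each). All 6 enzymes that act on IkB proteins or Rela were above (median 23.0), led by the kinase gene Ikbke at 61.7 ± 13.0 TPM and the phosphatase gene Ppp4c at 41.4 ± 6.80.

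The other feedback inhibitors were all above 1 TPM, 7 of 7, with a median of 13.9 TPM. Tnip3 averaged 45.3 ± 15.1 TPM and Tnip1 35.8 ± 11.1; both encode proteins that bind A20 or act with it. All 7 mRNA decay factors were above (median 9.05), led by Zfp36, whose protein binds AU-rich elements, at 60.3 ± 8.59 TPM, and Zfp36l1 at 38.8 ± 3.93. Zc3h12a, the RNase Regnase-1 that is known to act on Nfkbiz mRNA, averaged 9.05 ± 2.45 TPM. The pentamer ATTTA, the core of AU-rich elements, was counted in the 3′ UTR of each leading transcript. It occurred 4 times in Nfkbiz (1355 bases), 2 times in Nfkbia (512 bases), 1 time in Nfkbid (559 bases) and not in Nfkbib, Nfkbie or Bcl3. It occurs at least once in 58.4% of 42836 protein-coding transcripts, with a median of 1.

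**Figure D5:**
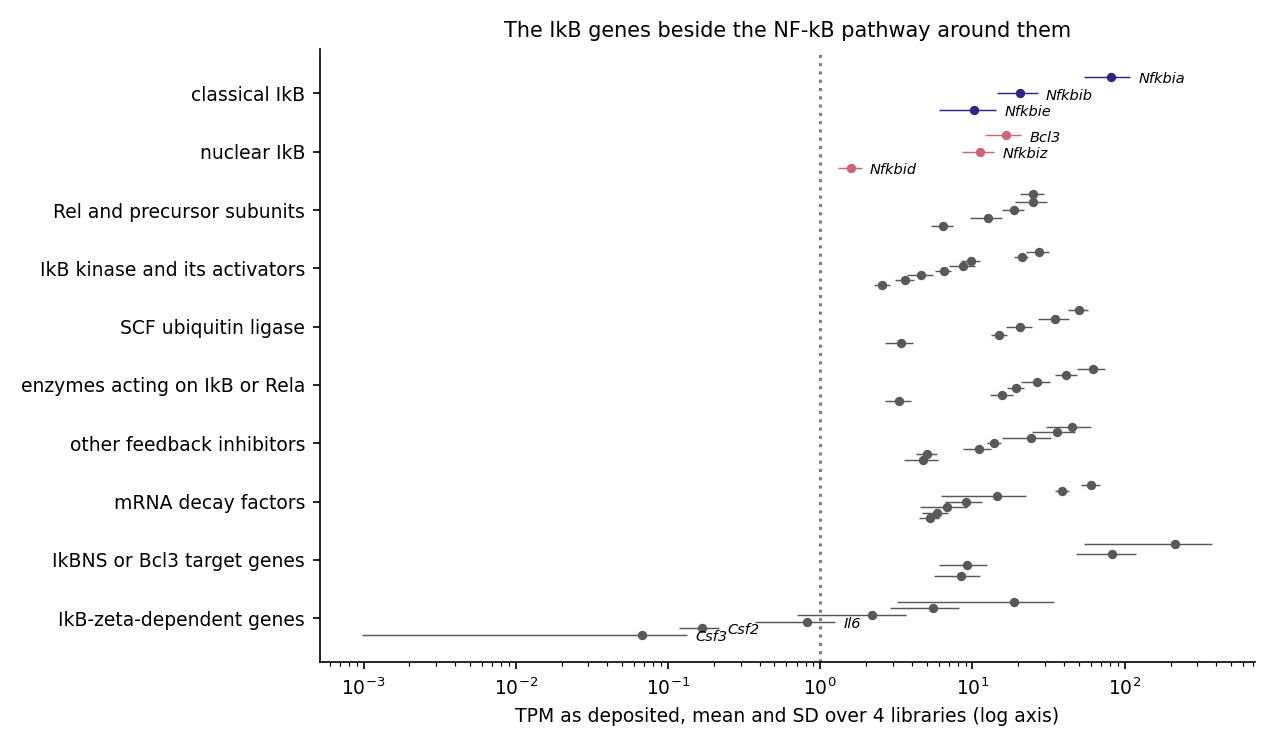
Mean TPM and SD over the 4 libraries (log axis) of the IkB genes and of the lists around them; each point is 1 gene and the dotted line is 1 TPM. Nfkbia, at 81.4 TPM, lies above each Rel subunit, kinase and ligase gene, and of the genes shown only Il6, Csf2 and Csf3 have a mean below 1 TPM.

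Genes that depend on the nuclear members in macrophages stood at very unequal levels. Of 6 genes known to need IkB-zeta, 3 were above 1 TPM, 2 below and 1 neither, with a median of 1.495 TPM. Lcn2, the siderophore-binding lipocalin, stood at 7.81, 12.1, 13.3 and 41.8 TPM, and Ptges, a prostaglandin synthase, at 6.64, 1.83, 5.62 and 8.08 TPM. Their coefficients of variation, 0.439 and 0.330, were above the 0.163 of Nfkbiz. The colony-stimulating factor genes Csf2 (0.168 ± 0.0499 TPM; limma adjusted p = 2.14e-06) and Csf3 (0.0675 ± 0.0665 TPM; limma adjusted p = 1.12e-06) were below 1 TPM (SD, n = 4 each). Il6 stood at 0.90, 0.80, 0.24 and 1.31 TPM and was called on neither side (limma adjusted p = 0.233 for below). On the rescaled levels Il6 was called above 1 TPM, at 2.59 TPM, and Csf2 lost its call (limma adjusted p = 0.0531). By the second quantification Il6 was called below 1 TPM (0.339 TPM, limma adjusted p = 0.00229). It was also called below when no filter was set (limma adjusted p = 0.0109). The third gene above, the interleukin-12 subunit gene Il12b, stood at 3.87, 0.99, 2.95 and 0.90 TPM. It lost its call without replicate 1 (1.61 TPM, limma adjusted p = 0.0984) and in the second quantification (0.910 TPM).

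All 4 genes that IkBNS or Bcl3 is known to restrain or act on were above 1 TPM, with a median of 46.0 TPM. Ccl2, a monocyte chemokine gene, was the highest, at 435, 103, 87.6 and 235 TPM. Tnf averaged 82.7 ± 35.2 TPM, close to the 81.4 ± 27.1 TPM of Nfkbia (SD, n = 4 each). As deposited, both were lowest in replicate 3 and highest in replicate 4. Rescaled to protein-coding genes, Tnf was about as high in replicate 1 (330 TPM) as in replicate 4 (328 TPM). All 8 immediate-early genes were above (median 18.9 TPM), led by Atf3 at 92.1 ± 33.9 TPM and Zfp36.

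The markers of the labelled cell type were abundant. All 8 macrophage markers were above 1 TPM, and their summed level was 4086 to 6270 TPM. The 4 B cell markers summed to 0.01 to 0.08 TPM and the 3 fibroblast markers to 0 to 0.09 TPM. Of 5 T cell markers only Cd4, at 15.0 ± 4.40 TPM, was above, with Cd3d, Cd3e, Cd3g and Cd8a at 0.15 TPM or less in every library. Of 5 neutrophil markers S100a8 (4.54 TPM) and S100a9 (6.25 TPM) were above, with Ly6g, Elane and Mpo at 0.14 TPM or less. The expected counts summed to 30660511, 36681241, 48223718 and 42785115 in replicates 1 to 4.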

How the data were processed

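Total RNA-seq of 4 libraries in 1 group was used as deposited. Per the file headers, the gene and first transcript tables give expected counts, TPM and posterior mean TPM, with scores for the bounds of TPM and a percent of each gene per transcript, while the other transcript table holds estimated counts with TPM. The build was mm10 with annotation M21, per the deposited notes; no aligner or quantification tool is named in those sources. All 55536 gene rows matched GENCODE M21. Protein-coding and promoter sequences came from GENCODE M21 transcripts and RefSeq GRCm38.p6.

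The 6 members, the lists and the tests were chosen with earlier results of these data known. Levels were tested on log2(TPM + 0.1) against 1 TPM with limma 3.58.1 (variance trend, intercept only), for genes with at least 10 summed expected counts, adjusted over all genes tested. Quantifications were compared with limma treat at a log2 difference of 1, for genes of at least 1 TPM. The spread was edgeR 4.0.16's coefficient of variation on expected counts rounded to whole numbers (TMM). Pairs of members used an exact sign-flip permutation. Alternatives were other pseudocounts, filters and scalings, the second quantification, posterior means, DESeq2 1.42.0 and each library left out. Counting intervals are exact Poisson ones; they cover counting error alone, and reads are not independent molecules. The tests were run on simulated data first. In each list, the highest 2 genes and every gene not called above were named; other genes outside the family were named after their values were seen. R 4.3.3 and Python 3.11.15 were used.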

Additional observations from a re-analysis of the deposited data

Results flagged for a closer look

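Over 4 libraries, 8 of 87 values tested had 1 library standing apart from the other 3 by Dixon's criterion at 95%, which chance gives in about 1 of 20 values. Replicate 3 stood apart in the share of the family's TPM held by Bcl3, at 17.5%, against 10.2% in each of the other 3. It also stood apart in the share of Nfkbib held by Nfkbib-202 in the second quantification, at 99.3%, against 98.7% in each of the other 3. Replicate 4 was the high library for Rela, which encodes the p65 subunit, at 23.2 TPM (17.0 to 17.3 in the others), for Tnfaip3 at 36.7 TPM (18.7 to 21.5), and for Tnip2 at 6.18 TPM (4.53 to 4.81). It was also the high library for Rc3h1, which encodes Roquin-1, at 6.37 TPM (4.82 to 4.85), and for Lcn2 at 41.8 TPM (7.81 to 13.3). Replicate 2 was the low library for the deubiquitinase gene Otulin, at 11.8 TPM (14.3 to 14.8). Genes of at least 10 TPM were shifted in the deposited values by a median of 0.25 on the log2 scale in replicate 4 and -0.27 in replicate 2. Rescaled to protein-coding genes, Rela (67.3 TPM), Tnip2 (17.9 TPM) and Rc3h1 (19.2 TPM) were highest in replicate 2 instead. Otulin was then lowest in replicate 4, at 40.3 TPM. Tnfaip3 and Lcn2 stayed highest in replicate 4, at 100.3 and 114 TPM.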

How the results depend on the processing

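All 6 members were above 1 TPM under each alternative scaling, filter and pseudocount, with posterior means and without each library, but 5 were by the second quantification, where Nfkbid stood at 0.669 TPM. There 46 list genes were above, against 52 in the first quantification, and Tab3 (1.01 TPM) and Il12b (0.910 TPM) changed side without a call. Rescaled to protein-coding genes, Il6 was called above at 2.59 TPM, and the differences between quantifications changed sign for Nfkbia (0.0231), Nfkbiz (0.0232), Nfkbid (0.19) and Bcl3 (0.0020). The number of members more variable than the median gene was 2. It was 0 with no filter, 6 by DESeq2's gene-wise dispersion, and 1 to 3 with a library left out, the 1 being without replicate 3; the cause was not tested. The pairs in one order numbered 13, and 14 without replicate 3. Of single-gene values, 6 more lost a call and 2 transcript shares moved. In addition 2 gained a call, both for Il6, below 1 TPM by the second quantification and with no filter. Nfkbid had the fewest counts of the members, 152 to 224 per library.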
